A study of Mus musculus with 11 samples.

Results

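The transcripts of 10 acute phase proteins were examined in mouse liver. They are the serum amyloid A genes *Saa1*, *Saa2*, *Saa3* and *Saa4*, the lipocalin *Lcn2*, the orosomucoid genes *Orm1* and *Orm2*, haptoglobin (*Hp*), hemopexin (*Hpx*) and *Itih4*. The members were chosen by gene symbol. All 10 were found among the 13669 genes of the count table, and all 10 were among the 13334 genes tested.

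The livers came from 11 wild-type male mice, described by the study as C57BL/6J, which had received a recombinant adeno-associated virus of serotype 8 by the tail vein. In 5 mice the virus expressed a negative control sequence (AAV-NC). In 6 mice it expressed a tough decoy (AAV-TuD), an RNA hairpin made to bind *miR-379* and *miR-541* of the *miR-379/miR-410* cluster. The study reports that host transcripts and other microRNAs of that cluster were also lower in liver. Both vectors use the LP1 promoter, which is active in hepatocytes, and carry an EGFP sequence with stop codons, so that both groups had been exposed to a virus and no untreated liver was compared. The study bought its mice at 6 weeks of age, used regular chow where no other diet is named, and killed the animals after a fast of some hours. Neither the age nor the time after virus is given for each liver. The study treats each liver as a separate animal, and the p values measure the spread between these livers.

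Acute phase proteins are secreted by the liver, and their levels in plasma rise or fall when tissue is injured or infected. Interleukin-6, acting through its receptor, JAK kinases and STAT3, and interleukin-1 and tumor necrosis factor, acting through NF-κB, drive their transcription in hepatocytes together with C/EBP factors and glucocorticoids. *Saa1*, *Saa2* and *Lcn2* are low in the resting mouse liver and respond over a wide range, while *Hp*, *Hpx*, *Orm1* and *Saa4* are already abundant there.

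Libraries were made from 3′ ends, so long and short transcripts yield similar numbers of reads, and CPM (read counts relative to library sizes scaled by the TMM factors of edgeR) were used as the level of each transcript. The total per liver lay between 8148531 and 11971245 reads with AAV-NC and between 8923726 and 12043959 with AAV-TuD. The *Mup* genes, which encode major urinary proteins, held 38.6% of the reads in AAV-NC liver 7, and 30.9% and 28.4% in AAV-TuD livers 3 and 5, against 8.09% to 18.7% in the other livers. Without these 3 livers, *Saa1* (log2 fold change 1.77, edgeR adjusted p = 0.0043), *Saa2* (2.10, adjusted p = 0.0137) and *Itih4* (-0.52, adjusted p = 0.00293) kept the calls described below, and *Lcn2* fell short of the read minimum and could not be tested. The hepatocyte markers *Alb*, *Ttr* and *Apoa1* were among the abundant transcripts of every liver, and the summed level of the 10 hepatocyte markers was between 37690 and 43840 CPM with AAV-NC and between 44320 and 51150 CPM with AAV-TuD, without overlap. *Alb* is the largest part of that sum. In whole liver, more cells of a type and more RNA per cell cannot be told apart.

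The genes of the 2 families lie in clusters that include near copies, which bears on how their reads were counted. On GRCm38 (GENCODE M21 annotation), *Saa3* (ENSMUSG00000040026), *Saa4* (ENSMUSG00000040017) and *Saa1* (ENSMUSG00000074115) occupy chr7:46711998-46715700, chr7:46727998-46732603 and chr7:46740497-46742980 on the minus strand, and *Saa2* (ENSMUSG00000057465) follows at chr7:46751790-46754313 on the plus strand. *Orm1* (ENSMUSG00000039196), *Orm3* (ENSMUSG00000028359) and *Orm2* (ENSMUSG00000061540) occupy chr4:63344560-63348163, chr4:63356162-63359511 and chr4:63362449-63365878, all on the plus strand. The annotated transcripts of *Saa1* and *Saa2* share 94.4% of their bases, and 94.3% over the last 300 bases, where the reads start. *Saa3* shares 73.2% with *Saa1* and 73.9% with *Saa2*, and *Saa4* was not compared. *Orm1* and *Orm2* share 91.0% over the whole transcript and 97.7% over the last 300 bases. *Orm2* and *Orm3* share 92.0% over the last 300 bases. How reads that match several genes were counted is not given in the sources used here, so the division of reads within each of these sets is uncertain. None of the members overlaps another annotated gene.

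The other members stand apart. *Lcn2* (ENSMUSG00000026822) is at chr2:32384633-32388252 on the minus strand, *Hpx* (ENSMUSG00000030895) at chr7:105591613-105600137 on the minus strand, *Hp* (ENSMUSG00000031722) at chr8:109575128-109579172 on the minus strand, and *Itih4* (ENSMUSG00000021922) at chr14:30886476-30902353 on the plus strand, next to *Itih3* and *Itih1*.

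Of the 10 members and *Orm3*, 9 had a promoter in the RefSeq sequences for GRCm38.p6. The 250 bases before each start were searched on both strands for the C/EBP motif TTGNNCAA, the STAT motif TTCNNNGAA, a relaxed NF-κB motif and the TATA motif TATAAA. *Saa1* and *Saa2* are shown first because both were called higher with AAV-TuD. Capitals mark matches to the C/EBP motif (8 bases) and, in *Saa1* alone, the NF-κB motif (10 bases). The *Saa1* sequence is chr7:46742981-46743230 on the minus strand, and the *Saa2* sequence, cut before the annotated exon, is chr7:46751583-46751789 on the plus strand.
Saa1: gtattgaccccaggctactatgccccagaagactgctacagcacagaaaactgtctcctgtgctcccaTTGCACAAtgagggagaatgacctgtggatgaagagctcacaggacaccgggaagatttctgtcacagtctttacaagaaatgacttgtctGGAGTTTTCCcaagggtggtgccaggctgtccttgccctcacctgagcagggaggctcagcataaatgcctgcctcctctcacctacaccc
Saa2: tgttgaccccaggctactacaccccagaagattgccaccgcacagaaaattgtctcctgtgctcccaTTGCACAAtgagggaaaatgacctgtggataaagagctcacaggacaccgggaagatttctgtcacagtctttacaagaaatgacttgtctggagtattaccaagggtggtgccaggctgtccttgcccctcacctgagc

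The C/EBP match TTGCACAA begins at -182 from the start of *Saa1* and at -183 from that of *Saa2*. Over 249 aligned bases of the full windows, 238 were identical (95.6%). The NF-κB match GGAGTTTTCC begins at -91 in *Saa1*, and the *Saa2* window holds no match to that motif. *Orm2* and *Orm3* are shown because these neighbors differed in their call. Capitals mark the C/EBP and TATA motifs. The *Orm2* sequence is chr4:63362199-63362448 and the *Orm3* sequence chr4:63355908-63356157, both on the plus strand.
Orm2: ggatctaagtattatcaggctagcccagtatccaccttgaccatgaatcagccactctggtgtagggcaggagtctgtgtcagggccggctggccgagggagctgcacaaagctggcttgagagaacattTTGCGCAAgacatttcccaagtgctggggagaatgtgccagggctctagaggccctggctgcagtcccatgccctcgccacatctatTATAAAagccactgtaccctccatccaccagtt
Orm3: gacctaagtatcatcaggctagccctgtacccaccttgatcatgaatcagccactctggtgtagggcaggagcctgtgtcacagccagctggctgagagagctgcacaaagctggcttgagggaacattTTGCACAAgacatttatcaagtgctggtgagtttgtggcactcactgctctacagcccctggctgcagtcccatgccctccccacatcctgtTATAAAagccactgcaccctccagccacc

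Of their 245 aligned bases, 218 were identical (89.0%), and both windows hold a C/EBP match and TATAAA. The C/EBP motif was found in 6 of the 9 windows (*Saa1*, *Saa2*, *Saa4*, *Lcn2*, *Orm2* and *Orm3*), against 5.65% of 32851 mouse promoters of the same length. These 6 include the near copies shown above, and the *Lcn2* window, not shown, holds 197 bases of annotated *Lcn2* exons. The STAT motif was found in *Itih4* alone of the 9 windows (7.02% of all promoters), the NF-κB motif in *Saa1* and *Lcn2* (9.55%) and TATAAA in *Orm2* and *Orm3* (12.4%). A match of letters is not evidence that a factor binds there.

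By the quasi-likelihood test of edgeR, with Benjamini-Hochberg adjustment over all genes tested, 3 members were called higher with AAV-TuD at an adjusted p under 0.05 (*Saa1*, *Saa2* and *Lcn2*), 1 was called lower (*Itih4*) and 6 were not called. Of all genes tested, 11.6% were called, 7.24% higher and 4.33% lower. The values of the groups did not overlap for 3 members, *Saa1* and *Lcn2* on the higher side, where 4.11% of all genes were, and *Itih4* on the lower side, where 3.28% were. The median log2 fold change of the 10 members was 0.26, beside -0.002 for all genes. *Lcn2* passed the filter (over 10 reads in 5 livers or more) through the AAV-TuD livers alone, so these counts over the members are a description.

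**Figure D1:**
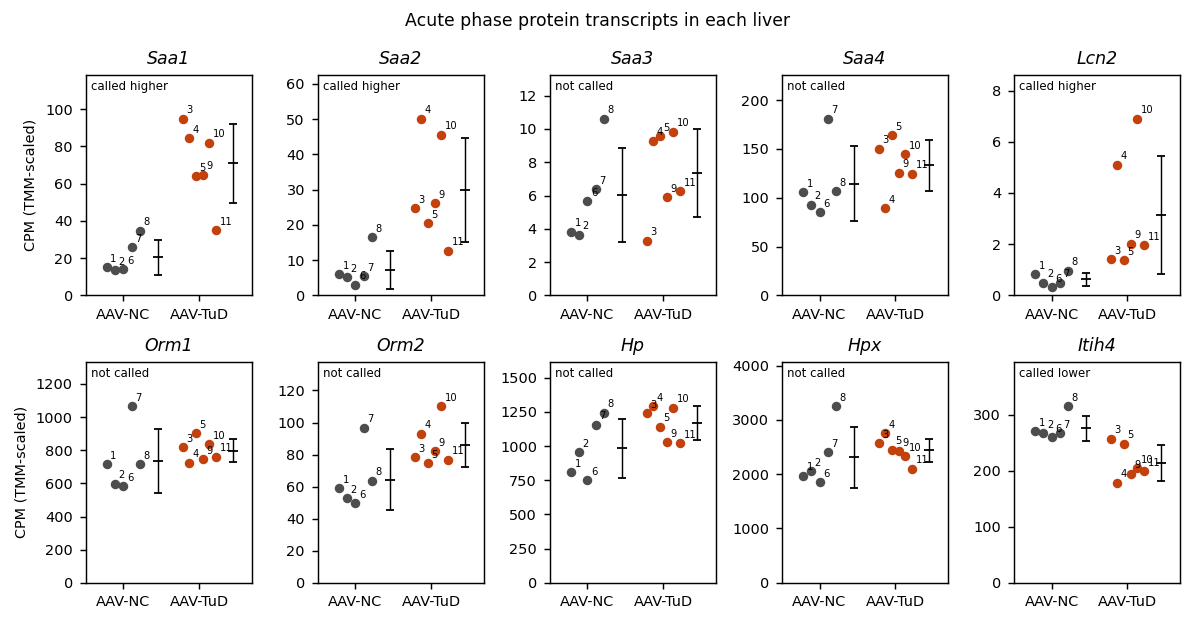
Level of each of the 10 transcripts in each liver, in TMM-scaled CPM on linear axes that start at 0. Gray points are the 5 AAV-NC and orange points the 6 AAV-TuD livers, numbered by replicate, and bars give mean ± SD. *Saa1* rises from 13.5 to 34.8 CPM in AAV-NC livers to 35.1 to 94.8 in AAV-TuD livers, and the ranges of *Orm1*, *Hp* and *Hpx* overlap.

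By mean level, the members had the same order in the 2 groups. *Hpx* had the highest mean with AAV-NC (2310 CPM), followed by *Hp* (983), *Orm1* (736), *Itih4* (276), *Saa4* (114), *Orm2* (64.4), *Saa1* (20.6), *Saa2* (7.24), *Saa3* (6.02) and *Lcn2* (0.629). *Hpx* ranked 56 of 13334 tested genes by mean level over all livers and *Lcn2* ranked 11225. The members that were called higher were among the 4 lowest, and the AAV-NC ranges of the neighbors *Saa2* and *Saa3*, 3.099 to 16.4 and 3.65 to 10.6 CPM, overlap. The summed level of the 10 members was between 3607 and 5766 CPM with AAV-NC and between 4342 and 5281 CPM with AAV-TuD. These ranges overlap, and *Hpx*, *Hp* and *Orm1* make up most of the sum.

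*Saa1* encodes a main inducible serum amyloid A, which travels on high-density lipoprotein. Its level in AAV-NC livers 1, 2, 6, 7 and 8 was 15.2, 13.5, 13.9, 25.8 and 34.8 CPM. In the AAV-TuD livers it was 35.1 CPM at the lowest, 73.3 at the median and 94.8 at the highest. All 6 AAV-TuD livers lay above all AAV-NC livers, but AAV-TuD liver 11 exceeded AAV-NC liver 8 by a fraction of 1 CPM. The mean was 3.43-fold higher with AAV-TuD, at 70.8 ± 21.2 CPM (SD, n = 6) against 20.6 ± 9.38 (SD, n = 5). The log2 fold change was 1.77 (SE 0.27, 95% interval 1.20 to 2.34, edgeR adjusted p = 0.00106). The two-sided exact permutation test of log2 CPM gave an unadjusted p = 0.00433.

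*Saa2* is the second inducible serum amyloid A gene of the mouse. Its level in AAV-NC livers 1, 2, 6, 7 and 8 was 5.97, 5.16, 3.099, 5.51 and 16.4 CPM, so that liver 8 was again the highest. In the AAV-TuD livers it was 12.7 CPM at the lowest, 25.5 at the median and 50.1 at the highest. AAV-TuD liver 11, at 12.7 CPM, lay below AAV-NC liver 8, and the other 5 AAV-TuD livers lay above all AAV-NC livers. The mean rose from 7.24 ± 5.27 CPM (SD, n = 5) to 30.0 ± 14.7 (SD, n = 6), with a log2 fold change of 2.02 (SE 0.40, edgeR adjusted p = 0.00499). Since the reads of these near copies may have been divided with error, they were also summed, and the sum gave a log2 fold change of 1.85 (adjusted p = 0.00132, same test).

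*Saa4* encodes the constitutive serum amyloid A of high-density lipoprotein, and *Saa3* a member of the family made in macrophages and other tissues as well. *Saa4* was between 85.3 and 181 CPM with AAV-NC and between 89.6 and 164 with AAV-TuD, and both ends of the AAV-TuD range lay inside the AAV-NC range. Its log2 fold change was 0.22 (95% interval -0.16 to 0.60, edgeR adjusted p = 0.474). *Saa3* was between 3.65 and 10.6 CPM with AAV-NC and between 3.29 and 9.83 with AAV-TuD, with a log2 fold change of 0.27 (95% interval -0.36 to 0.89, adjusted p = 0.623, same test). These intervals leave room for a modest change in either direction.

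The family was also compared as read ratios within each liver, which need no scaling factor. With those of *Orm3* and *Itih4* below, 4 ratios were computed, all chosen after the values were seen. Their p values, adjusted over these 4 alone, do not allow for that choice and are a description. The reads of *Saa1* per read of *Saa4* were between 0.143 and 0.325 with AAV-NC (median 0.145) and between 0.281 and 0.942 with AAV-TuD (median 0.540). AAV-TuD livers lay above all AAV-NC livers in 5 of 6 cases. The mean log2 difference was 1.57 (two-sided exact permutation test, p = 0.00649, Benjamini-Hochberg adjusted p = 0.013 over the 4 ratios computed). For *Saa2* per read of *Saa4* the mean log2 difference was 1.89 (exact permutation p = 0.013, adjusted p = 0.0173), with 4 of 6 AAV-TuD livers above every AAV-NC liver.

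*Lcn2* encodes lipocalin-2, which binds bacterial siderophores and is made by hepatocytes as well as neutrophils and macrophages. It was counted in 7, 4, 3, 4 and 10 reads in AAV-NC livers 1, 2, 6, 7 and 8, and in 15, 56, 13, 25, 80 and 23 reads in AAV-TuD livers 3, 4, 5, 9, 10 and 11. In CPM the AAV-NC livers lay between 0.332 and 0.973, and the AAV-TuD livers had 1.38 at the lowest, 1.995 at the median and 6.90 at the highest. All 6 AAV-TuD livers lay above all AAV-NC livers, and livers 10 and 4 stood above the other AAV-TuD livers. The AAV-NC mean was 0.629 ± 0.265 CPM (SD, n = 5) and the AAV-TuD mean 3.13 ± 2.31 CPM (SD, n = 6). The log2 fold change of 2.28 (SE 0.51, 95% interval 1.19 to 3.37, edgeR adjusted p = 0.0102) was the largest of the members and ranked 36 of 966 genes called higher. The exact permutation p of 0.00216, unadjusted, is the smallest that 6 livers against 5 allow. At 3 to 10 reads in a liver, the counting error of the AAV-NC values is large. With over 10 reads in 0 AAV-NC and 6 AAV-TuD livers, *Lcn2* entered the test through the AAV-TuD livers alone. Its call, rank and p values are therefore a description.

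The orosomucoids, or alpha-1-acid glycoproteins, are plasma carriers of basic drugs and lipids. *Orm1*, the most abundant of them, was between 582 and 1067 CPM with AAV-NC and between 724 and 902 with AAV-TuD, a log2 fold change of 0.12 (95% interval -0.17 to 0.40, edgeR adjusted p = 0.635). *Orm2* had 59.1, 52.9, 49.7, 96.8 and 63.6 CPM in AAV-NC livers 1, 2, 6, 7 and 8. In the AAV-TuD livers it had 74.8 CPM at the lowest, 80.1 at the median and 110 at the highest. Every AAV-TuD liver lay above the AAV-NC livers other than liver 7, which exceeded 5 of the 6. The log2 fold change of *Orm2* was 0.42 (SE 0.15, 95% interval 0.09 to 0.74), and it was not called (adjusted p = 0.0911, same test). Without AAV-NC liver 7, one of the 3 with a high *Mup* share, it was 0.61 and called (adjusted p = 0.00633), and without all 3 it was 0.69 (adjusted p = 0.00366).

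*Orm3*, which lies between *Orm1* and *Orm2* and is no member, was called higher. It had 3.58, 2.27, 2.10, 6.13 and 1.75 CPM in AAV-NC livers 1, 2, 6, 7 and 8, and 6.27 at the lowest, 8.78 at the median and 14.9 at the highest in AAV-TuD livers. All 6 lay above all AAV-NC livers, with AAV-TuD liver 5 just above AAV-NC liver 7. The log2 fold change was 1.62 (SE 0.30, edgeR adjusted p = 0.00353). Within each liver, the reads of *Orm3* per read of *Orm1* were between 0.00245 and 0.00575 with AAV-NC and between 0.00695 and 0.0178 with AAV-TuD, a mean log2 difference of 1.54 (exact permutation p = 0.00433, adjusted p = 0.013 over the 4 ratios). The count of *Orm3* is small beside that of *Orm1*, and the effect of misplaced reads on it was not tested. The sum of *Orm1*, *Orm2* and *Orm3* gave a log2 fold change of 0.15 (edgeR adjusted p = 0.513).

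Haptoglobin binds free hemoglobin and hemopexin binds free heme. *Hp* had 809, 955, 751, 1155 and 1245 CPM in AAV-NC livers 1, 2, 6, 7 and 8, and between 1023 and 1293 in the AAV-TuD livers, of which 2 exceeded all AAV-NC livers. Its log2 fold change was 0.25 (SE 0.13, 95% interval -0.03 to 0.52, edgeR adjusted p = 0.24). *Hpx* was between 1856 and 3257 CPM with AAV-NC and between 2102 and 2754 with AAV-TuD, with a log2 fold change of 0.08 (95% interval -0.21 to 0.37, adjusted p = 0.777, same test). AAV-NC liver 8 had the highest *Hpx* of all 11 livers. The upper bounds of *Hp* and *Hpx* lay below the lower bounds of *Saa1* and *Saa2*, which were 1.20 and 1.18.

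*Itih4* encodes a heavy-chain member of the inter-alpha-trypsin inhibitor family that circulates without the bikunin light chain. It had 270, 267, 260, 267 and 315 CPM in AAV-NC livers 1, 2, 6, 7 and 8. In the AAV-TuD livers it had 179 CPM at the lowest, 202 at the median and 257 at the highest. The AAV-TuD livers all lay below the AAV-NC livers, although AAV-TuD liver 3, at 257 CPM, was close to AAV-NC liver 6, at 260. The AAV-NC mean was 276 ± 22.3 CPM (SD, n = 5) and the AAV-TuD mean 214 ± 31.5 CPM (SD, n = 6). The log2 fold change was -0.37 (SE 0.10, 95% interval -0.57 to -0.17, edgeR adjusted p = 0.0212), which ranked 301 of 577 genes called lower. The call was lost without AAV-NC liver 8 (-0.32, adjusted p = 0.0556), without AAV-TuD liver 4 (-0.32, adjusted p = 0.053) and without AAV-TuD liver 9 (-0.34, adjusted p = 0.053).

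In the inter-alpha-trypsin inhibitor family, *Itih1*, *Itih2*, *Itih3* and *Ambp* also had lower means with AAV-TuD under TMM, and *Itih5* a higher mean; with library size alone the log2 fold changes of the first 4 were -0.001, -0.05, -0.13 and 0.04. Of the 7 family relatives tested (*Orm3*, *Itih1*, *Itih2*, *Itih3*, *Itih5*, *Ambp* and *Apom*), 2 were called higher, 1 lower and 4 not. Of all genes, 7.24% were called higher and 4.33% lower. *Itih3*, the neighbor of *Itih4*, was lower (305 against 240 CPM, log2 fold change -0.35, edgeR adjusted p = 0.0322). Its call was lost in 5 of 11 fits with a liver left out (without AAV-NC livers 7 or 8 or AAV-TuD livers 4, 9 or 10, adjusted p up to 0.0818). DESeq2 called 3 relatives lower, with *Itih1* and *Ambp* in addition. *Itih5*, which encodes an extracellular matrix-associated heavy chain, was higher (13.6 against 35.6 CPM, log2 fold change 1.38, adjusted p = 3.57e-05). *Ambp*, the precursor of alpha-1-microglobulin and bikunin and the most abundant of the list, had 1046 CPM with AAV-NC and 911 CPM with AAV-TuD (adjusted p = 0.134). The reads of *Itih4* per read of *Itih1* had a median of 2.55 with AAV-NC and 2.29 with AAV-TuD, and 3 of 6 AAV-TuD livers lay below all AAV-NC livers (mean log2 difference -0.15, exact permutation p = 0.115, adjusted p = 0.115 over the 4 ratios).

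The calls of the members with small changes depended on the scaling. When TMM was replaced by library size alone, all genes together had a median of 0.23 on the log2 scale, and 1386 genes were called higher (10.4%) and 71 lower (0.532%), against 966 and 577 with TMM. Of the members, 5 were then called higher and none lower by edgeR's quasi-likelihood test. *Saa4* had a log2 fold change of 0.49 (adjusted p = 0.0389) and *Orm2* of 0.72 (adjusted p = 0.00564), while *Itih4* had -0.17 (adjusted p = 0.538). Relative to the median of all genes, these changes were 0.26, 0.48 and -0.40. *Saa1*, *Saa2* and *Lcn2* were called higher under either scaling, with log2 fold changes of 2.02, 2.29 and 2.58 with library size alone. The genes of the other lists that are given as lower below were called so under TMM, and with library size alone none of the 4 lower genes of the positive acute phase list, *Itih3*, *Il1r1*, *Hnf4a*, *Blvrb* or *Asgr1* was called, each keeping a negative log2 fold change.

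**Figure D2:**
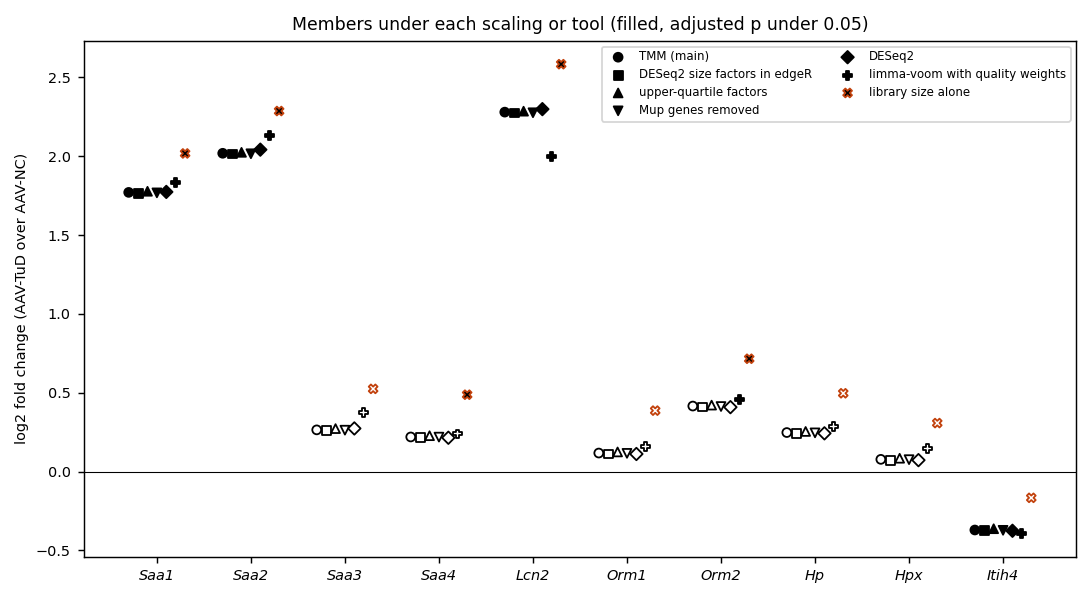
Log2 fold change of AAV-TuD over AAV-NC for the 10 members under TMM and 6 other scalings or tools. Filled symbols have an adjusted p under 0.05, and library size alone is drawn with orange edges. *Saa1*, *Saa2* and *Lcn2* are filled throughout, *Saa4* is filled for library size alone (0.49), *Orm2* for that and for limma-voom with quality weights (0.46), and *Itih4* is open for library size alone (-0.17).

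The livers differed within each group in a pattern that several members shared. AAV-NC liver 8 had the highest level of its group for 7 of the 10 members and liver 7 for the other 3 (*Saa4*, *Orm1* and *Orm2*). AAV-TuD liver 11 had the lowest level of its group for *Saa1*, *Saa2*, *Hp* and *Hpx*. Highest levels in the AAV-TuD group fell on livers 4 and 10 (3 members each) and on livers 3 and 5 (2 each). After subtraction of the group means from log2 CPM, the highest Pearson r between members over the 11 livers was that of *Saa4* and *Orm1* (r = 0.919, Spearman's rho = 0.936, r = 0.958 without the 2 livers farthest from the median). *Saa1* followed *Hpx* (r = 0.860, rho = 0.882), *Hp* (r = 0.834, rho = 0.800) and *Saa2* (r = 0.801, rho = 0.700). Without the 2 farthest livers the last of these was 0.565, so that it rests in part on those livers. *Orm2* and *Orm3* had r = 0.756, and r = 0.074 without the 2 farthest livers. These values share libraries and scaling factors and are a description.

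Over all tested genes, the patterns nearest to 4 members were found in the same way. For *Saa1* they were *Tbl2* (r = 0.948), *Zfp963* (0.879) and *Cct2* (0.876). For *Lcn2* they were *Lmnb1* (0.947), *Gbp2* (0.926) and *Mpeg1* (0.920). For *Orm2* they were *Nudt5* (0.958), *Dpagt1* (0.932) and *B2m* (0.920), the last with r = 0.611 without the 2 farthest livers. For *Hp* they were *Gnpda1* (0.915), *Gmcl1* (0.908) and *Mpst* (0.889). *Mpeg1* encodes perforin-2 of macrophages, *Gbp2* an interferon-induced guanylate-binding protein and *B2m* the light chain of class I histocompatibility molecules. Each r is over 11 livers and was picked as the highest among the 13334 genes tested.

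Beyond the members, the other genes listed as positive acute phase did not move in 1 direction. How far each of them responds in an acute phase of the mouse was not tested. Of 24 genes listed, 22 were in the table, and 4 were called higher, 4 lower and 14 not (36.4%, beside 11.6% of all genes), with a median log2 fold change of -0.10. The higher genes were the metallothioneins *Mt1* (1.74, edgeR adjusted p = 0.00797) and *Mt2* (2.004, adjusted p = 0.0105), which bind zinc and copper, *Cp*, the copper carrier ceruloplasmin (0.45, adjusted p = 0.00149), and *Lrg1*, a leucine-rich plasma glycoprotein (0.46, adjusted p = 0.0161). The lower genes were *Crp*, C-reactive protein (-0.34, adjusted p = 0.0039), *Lbp*, which delivers lipopolysaccharide to its receptor (-0.51, adjusted p = 0.0126), *Serpina3m* (-0.37, adjusted p = 0.0348), and *Pzp*, a protease inhibitor of the alpha-2-macroglobulin family (-0.33, adjusted p = 0.0377). *Mt2* had 13, 6, 6, 7 and 25 reads in AAV-NC livers 1, 2, 6, 7 and 8, and between 12 and 104 in AAV-TuD livers. It passed the read filter mainly through the AAV-TuD livers, so its call and the count of higher genes are a description. Its level in AAV-TuD liver 3 (1.13 CPM) lay below that in AAV-NC liver 8 (2.43 CPM). When single livers were left out, the 4 higher genes, *Crp* and *Lbp* kept their calls in all 11 fits. *Serpina3m* lost its call in 8 of them (without AAV-NC livers 1, 2 or 6 or AAV-TuD livers 3, 4, 5, 9 or 11), with adjusted p up to 0.0928. *Pzp* also lost its call in 8 (without AAV-NC livers 1, 2, 6 or 8 or AAV-TuD livers 4, 9, 10 or 11), with adjusted p up to 0.0869, so that the count of lower genes fell to 2 in some fits. Without the 3 livers with the highest *Mup* share, *Lbp* (adjusted p = 0.0943) and *Serpina3m* (adjusted p = 0.0622) were not called. *Serpina3m* belongs to a family of near copies, so its count is uncertain. *Fgb*, a fibrinogen chain and the most abundant of the list, had 2631 CPM with AAV-NC and 2365 CPM with AAV-TuD (adjusted p = 0.352).

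*Cp* is shown by liver as the abundant gene of this list with the smallest p. It was between 623 and 711 CPM with AAV-NC and between 852 and 959 with AAV-TuD, without overlap. *Crp* was between 131 and 151 CPM with AAV-NC and between 106 and 123 with AAV-TuD, again without overlap. *Mt1* ranged widely with AAV-TuD, from 6.76 to 35.5 CPM, against 3.78 to 7.53 with AAV-NC, and overlapped in 1 liver.

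**Figure D3:**
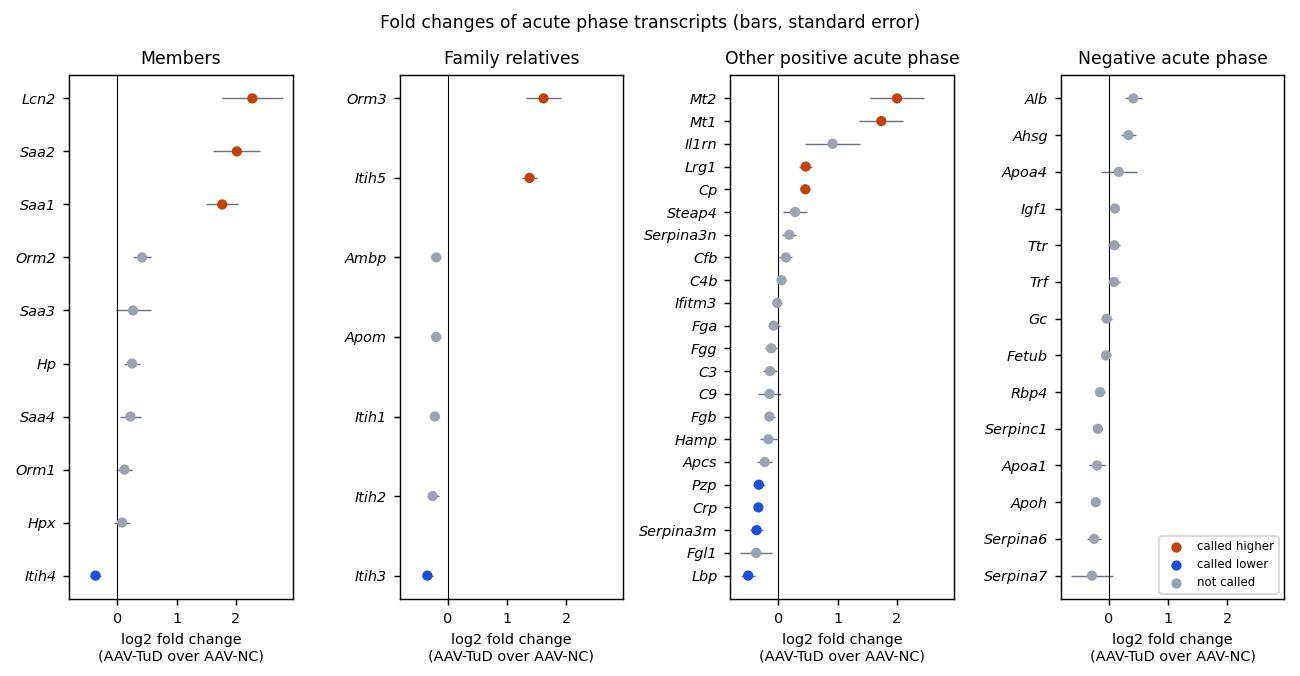
Log2 fold change of AAV-TuD over AAV-NC with its SE for the members and for 3 lists of related genes, under TMM. Orange marks genes called higher, blue genes called lower and gray genes not called. *Lcn2* (2.28), *Saa2* (2.02) and *Saa1* (1.77) stand to the right of the other members, and the other genes listed as positive acute phase lie on both sides of 0.

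Negative acute phase proteins fall in plasma during the response. Of 14 such genes tested, 0 were called by edgeR, and 4 had an unadjusted p under 0.05. DESeq2 and limma-voom each called 2 higher (*Alb* and *Ahsg*) and 2 lower (*Apoh* and *Serpinc1*), and edgeR with the *Mup* genes removed called *Alb* higher (adjusted p = 0.0194) and *Apoh* lower (0.046). *Alb*, the most abundant, had 21100 CPM with AAV-NC and 28040 CPM with AAV-TuD (log2 fold change 0.41, edgeR adjusted p = 0.0805), and all 6 AAV-TuD livers lay above all AAV-NC livers.

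Transcripts of the cytokines that drive these genes were near the limit of the data. Of 8 cytokines listed (*Il6*, *Il1a*, *Il1b*, *Tnf*, *Osm*, *Lif*, *Il11* and *Il22*), *Il1a* and *Il1b* were in the deposited table, and neither was called (0 at an unadjusted p under 0.05, and 0 by DESeq2 and limma-voom). *Il1b*, the more abundant, had a mean of 1.33 CPM with AAV-NC and 1.94 CPM with AAV-TuD (log2 fold change 0.56, 95% interval -0.05 to 1.17). Of 9 receptor genes tested, *Il1r1*, the signaling receptor of interleukin-1, was called lower (18.2 against 12.2 CPM, log2 fold change -0.58, edgeR adjusted p = 0.015) and 8 were not called. *Il1r1* kept its call with each liver left out in turn. DESeq2 called 3 receptor genes lower, with *Lifr* (adjusted p = 0.0377) and *Il1rap* (0.0411) in addition, and limma-voom called 2, with *Il1rap* (0.0417). *Lifr*, the most abundant receptor, had 172 CPM with AAV-NC and 115 CPM with AAV-TuD (adjusted p = 0.0725).

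Of 17 kinase and transcription factor genes tested, *Hnf4a*, a master regulator of hepatocyte genes, was called lower (154 against 119 CPM, log2 fold change -0.38, edgeR adjusted p = 0.015). The other 16 were not called, among them *Cebpa*, the most abundant, with 169 CPM and 164 CPM. *Relb*, also listed, did not pass the read filter and was not among those tested. With no filter, 1 gene of this list was called higher. Of 9 feedback genes tested, 0 were called by edgeR, DESeq2 or limma-voom, with 1 at an unadjusted p under 0.05. That gene was *Socs2* (28.4 against 10.9 CPM, log2 fold change -1.38, edgeR adjusted p = 0.0912), with overlapping ranges. Without AAV-NC liver 7, 1 feedback gene was called lower. *Nfkbia*, the most abundant feedback gene and an inhibitor of NF-κB, had 70.8 CPM and 71.7 CPM (log2 fold change 0.02, 95% interval -0.23 to 0.27). Of 8 genes for receptors and enzymes that handle the members' proteins or heme, *Blvrb*, a biliverdin reductase, was called lower (76.0 against 62.1 CPM, log2 fold change -0.29, edgeR adjusted p = 0.0433). This call was held in 2 of 11 fits with a liver left out, namely those without AAV-NC liver 8 or AAV-TuD liver 5, and the adjusted p in the others was up to 0.104. DESeq2 called *Lrp2* lower in addition. *Cd163* was not called under TMM (log2 fold change 0.60, edgeR adjusted p = 0.147). With library size alone, edgeR called *Cd163* higher (0.90, adjusted p = 0.00703) and *Lrp2* lower (-1.22, adjusted p = 0.0315). Without AAV-NC liver 7, 1 gene of this list was called higher and 0 lower. *Lrp1*, the hemopexin receptor and the most abundant of the list, had 125 CPM and 133 CPM (adjusted p = 0.386). These lists measure transcripts and not the activity of the kinases or factors.

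Markers of other liver cells moved with the same groups. Of 11 macrophage markers, all tested, 8 were called higher with AAV-TuD and 0 lower, beside 7.24% and 4.33% of all genes. Their median log2 fold change was 0.89, beside -0.002 for all genes. Their summed level was between 127 and 189 CPM with AAV-NC and between 144 and 407 with AAV-TuD. By log2 fold change, the 6 with the smallest p were *Vsig4* (0.93), *C1qc* (0.84), *C1qb* (0.98), *Csf1r* (0.98), *Cd5l* (0.97) and *C1qa* (0.79), and *Csf1r*, the receptor of colony-stimulating factor 1, was the most abundant of the list. When single livers were left out, 7 or 8 markers were called. AAV-TuD liver 10 had the highest sum and the highest *Lcn2*. AAV-TuD liver 3 had a sum of 144 CPM, inside the AAV-NC range, and the highest *Saa1* of all livers (94.8 CPM). Its *Saa2* was 24.8 CPM and its *Lcn2* 1.41 CPM, both above all AAV-NC livers. AAV-TuD liver 4 came next to liver 10 in both sum (309 CPM) and *Lcn2* (5.10 CPM). AAV-TuD liver 5 had a sum of 308 CPM and the lowest *Lcn2* of its group (1.38 CPM), just below that of liver 3.

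**Figure D4:**
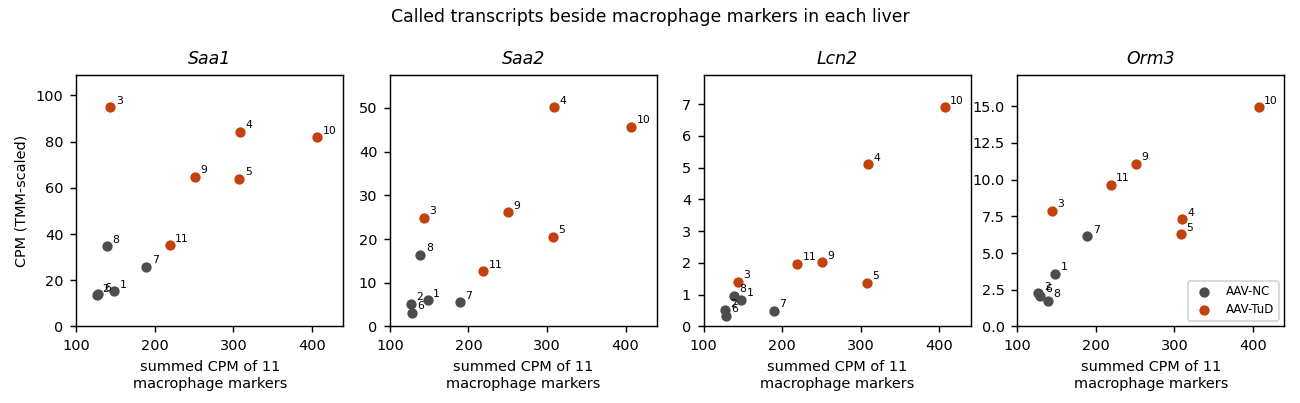
Level of *Saa1*, *Saa2*, *Lcn2* and *Orm3* in each liver (TMM-scaled CPM) against the summed CPM of 11 macrophage markers. Points are livers, numbered by replicate, gray for AAV-NC and orange for AAV-TuD. AAV-TuD liver 3 lies at a sum of 144 CPM with *Saa1* at 94.8 CPM, and AAV-TuD liver 10 at a sum of 407 CPM with *Lcn2* at 6.90 CPM.

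Of 8 cholangiocyte markers, 5 were tested and 4 called higher (*Spp1* 2.20, *Epcam* 2.0, *Krt19* 1.46 and *Sox9* 0.82 on the log2 scale), beside 7.24% of all genes. With AAV-NC, *Epcam* was at 0.332 to 1.13 CPM and *Krt19* at 0.389 to 1.385, so they passed the read filter mainly through the AAV-TuD livers. *Epcam* could not be tested without the 3 livers with the highest *Mup* share. The count of calls is therefore a description. The summed level of the 5 tested markers was between 24.04 and 45.6 CPM with AAV-NC and between 51.3 and 83.9 with AAV-TuD, without overlap. *Sox9* was the most abundant, and *Krt7*, *Cftr* and *Cldn4* were not tested. Of 12 neutrophil markers, *S100a9* alone was in the table, at 0.375 to 2.53 CPM with AAV-NC and 0.657 to 2.19 with AAV-TuD, and it was not called. Of 6 adipocyte markers *Car3*, which hepatocytes also express, was in the table (edgeR adjusted p = 0.963). Of the 10 hepatocyte markers, *Asgr1* (-0.28, adjusted p = 0.0225) and *Hnf4a* were called lower by edgeR, and 0 higher, with 4 of the 10 at an unadjusted p under 0.05. *Asgr1* lost its call without AAV-NC liver 1 or AAV-TuD liver 4 (highest adjusted p = 0.0622). DESeq2, limma-voom and edgeR with the *Mup* genes removed each called 1 higher (*Alb*) and 3 lower, with *Serpina1c* as the third. The part of macrophages and cholangiocytes in the levels of *Saa1*, *Saa2*, *Saa3*, *Lcn2* and *Orm3* was not tested.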

How the data were processed

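RNA of 11 livers (5 AAV-NC, 6 AAV-TuD) was sequenced. Per the labels and the study's methods, the authors made QuantSeq 3′ mRNA V2 libraries from 500 ng RNA, trimmed them with BBDuk, used STAR 2.5.3a for alignment to GRCm38 and Rsubread for reads per gene. The submitters' processing notes also name DESeq2 1.38.3. The deposited values are counts of reads per gene, not normalized, and the table was limited to genes reaching 10 reads in 5 livers or more. The annotation, strand setting and handling of reads that match several genes are not given in the sources used here. There were 0 unused columns.

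Genes above 10 reads in 5 livers or more entered edgeR 4.0.16, whose quasi-likelihood test was used (R 4.3.3), TMM scaling and Benjamini-Hochberg adjustment over all genes tested, at an adjusted p under 0.05. Standard errors were derived from the log2 fold change and F statistic, with 95% intervals from the test's degrees of freedom. Log2 CPM used a prior count of 2. Single values were compared by two-sided exact permutation over 462 splits of the livers, and the smallest possible p is 0.00216. The steps were tested on simulated data. At 8148531 to 12043959 reads per liver, genes near 1 CPM have large counting error.

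The members and gene lists were chosen with earlier results of these data known. Text names the members, *Orm3*, up to 6 called genes of each list by smallest p, the most abundant gene of each list, and the 3 genes nearest in pattern to each of 4 members. *Serpina3m*, *Pzp* and genes called by another tool or scaling alone, and the ranges of *Cp*, *Crp*, *Mt1* and *Mt2*, were added after their values were seen. Alternatives were DESeq2 1.42.0, its size factors, upper-quartile factors, library size alone, *Mup* genes removed, limma-voom (limma 3.58.1) with quality weights, no filter, the edgeR filter, stricter thresholds, summed paralogs and each liver left out in turn. Leaving out the 3 livers with the highest *Mup* share and the read ratios were added after the data were seen. No replicate number occurs in both groups. Sequences are from RefSeq (GRCm38.p6) and positions from GENCODE M21.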

Additional observations from a re-analysis of the deposited data

Results flagged for a closer look

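In 2 of the 28 groups of livers and measures examined, the most extreme liver lay far from the others, where chance gives about 1 in 20 groups, or 1.4 of 28. For *Itih4*, AAV-NC liver 8 had the highest log2 CPM of its group, and its gap to the next liver was 0.797 of the range of the group. For the reads taken by *Mup* genes, AAV-NC liver 7 had the highest value of its group (38.6%), and its gap to the next liver was 0.804 of the range. Both livers are AAV-NC livers in which several members had their highest level. *Itih4* without AAV-NC liver 8 and *Orm2* without AAV-NC liver 7 are given in the report.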

How the results depend on the processing

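At an adjusted p under 0.05, the calls of *Saa1*, *Saa2* and *Lcn2* were kept under every other scaling, tool, filter and set of livers in which they were tested, with log2 fold changes from 1.65 to 2.05 (21 alternatives), 1.82 to 2.61 (21) and 1.89 to 2.58 (19). Without the 3 livers with the highest *Mup* share, *Lcn2* did not reach the read minimum and could not be tested. The deposited table was itself limited by reads, so the fit with no filter cannot show how *Lcn2* depends on the filter. With library size alone, 71 genes were called lower, 5 members higher and 0 members lower. At an adjusted p under 0.01, 2 members were higher, as *Lcn2* (0.0102) was not, and 0 were lower. With a minimum log2 fold change of 0.5, 3 were higher and 0 lower. With each liver left out in turn, 1012 to 1829 genes were called, 337 to 714 of them lower, and 0 to 1 members lower. The lowest counts were without AAV-TuD liver 4 and the highest without AAV-TuD liver 3, and the count of lower genes also fell by more than 1.5 times without AAV-TuD liver 10 (379). *Itih4* kept its direction in 20 alternatives and lost its call in 4, namely library size alone and the 3 livers named in the report. *Orm2* gained a call in 4, among them limma-voom with quality weights (0.46, adjusted p = 0.044), and *Saa4* in 1. No direction of a member turned. Depth limits *Lcn2*, *Saa3* and *Orm3* most, since the lowest had 3 to 10 reads per AAV-NC liver. No paired analysis was possible because the groups share no replicate number.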
